A study of Mus musculus with 2 samples.

Results

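The loci of 9 stem cell factor genes, Zfp42, Klf4, Tbx3, Prdm14, Tdgf1, Lin28a, Fgf4, Tfcp2l1 and Zfp281, were examined for cytosine methylation in cultured mouse stem-like tumour cells, undifferentiated and differentiated. Each locus was a fixed window of the GRCm38 genome around the gene, between 55 and 109 kb long, and every listed position in the window was taken as a member. The windows were set by coordinates and not by measured values. They held 449 of the 1370204 positions listed in either library, of which 266 were CCGG sites (of 801723 in all) and 183 were CCAGG or CCTGG sites. Within the windows, 84 of the 266 CCGG sites lay in the model of another gene, such as Dhdds beside Lin28a or Ncoa2 beside Prdm14.

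The cells were F9, an established line of mouse embryonal carcinoma, the stem cell type of teratocarcinoma. The first library came from undifferentiated F9 cells, which were kept on gelatin-coated plates. The second came from cells at day 4 of differentiation, which was induced with 1 µM retinoic acid in low-attachment dishes. The names of both libraries also carry the word untreated, and the labels do not say what that refers to. The series asked how enhancers of pluripotency genes are regulated in embryonal carcinoma cells. There was 1 library per group and therefore no replicate, so each test below compares 2 libraries of reads and not the conditions.

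In methylRAD sequencing the enzyme FspEI cuts beside methylated cytosines and releases short fragments, here of 30 bp, so that reads pile up at methylated sites. CCGG contains a CpG, the usual target of DNA methylation in mammals, whereas CCAGG and CCTGG carry the methylated cytosine outside CpG. The genes studied belong to the network that acts in the undifferentiated state of stem cells or in the exit from it. They encode transcription factors (Zfp42, Klf4, Tbx3, Prdm14, Tfcp2l1, Zfp281), an RNA-binding protein (Lin28a), and signalling proteins of the FGF and Nodal pathways (Fgf4, Tdgf1). Promoters rich in CpG are usually kept free of methylation, while enhancers can gain or lose it as a gene is shut down or switched on. A bulk library cannot tell a change in the methylation of cells of one kind from a change in which cells are present.

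A site was listed in a library only from 5 counts, so an unlisted site had 0 to 4 counts and cannot be read as unmethylated. Levels are counts per 1000000 CCGG counts of the library, which held 16687588 CCGG counts when undifferentiated and 15705436 when differentiated. A site unlisted in one library was given 4 counts there, a level of 0.240 or 0.255, so that its fold difference is a lower bound. Amplified reads without molecular identifiers are not independent molecules, and all intervals cover counting error only.

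The 300 bases around the start of 7 of the genes held 16 CCGG motifs, and 0 of these were listed in either library. RefSeq promoter entries (GRCm38.p6, 250 bases before and 50 bases after the start) were found for all genes but Tbx3 and Prdm14. Fgf4 and Zfp281 had 4 motifs each, Klf4 and Tfcp2l1 had 3 each, Zfp42 and Lin28a had 1 each, and Tdgf1 had 0. Over the 32851 promoters of the same table, 5710 of 39736 CCGG motifs were listed in at least 1 library (14.4%), 10.3% in the undifferentiated and 11.7% in the differentiated one. These promoters differ in base composition: the ratio of observed to expected CpG was 0.97 for Klf4, 0.79 for Zfp281, 0.77 for Fgf4 and 0.66 for Tfcp2l1, against 0.55 for Tdgf1, 0.44 for Zfp42 and 0.35 for Lin28a, with a median of 0.38 over all promoters. The 250 bases upstream of 3 starts are shown because they hold between 2 and 4 CCGG motifs that could have been released and yet have no listed site. They are, 5′ to 3′ on the strand of the gene with CCGG in capitals, Fgf4 (chr7:144861136-144861385, plus strand), Tfcp2l1 (chr1:118627695-118627944, plus strand) and Zfp281 (chr1:136624651-136624900, plus strand).
Fgf4: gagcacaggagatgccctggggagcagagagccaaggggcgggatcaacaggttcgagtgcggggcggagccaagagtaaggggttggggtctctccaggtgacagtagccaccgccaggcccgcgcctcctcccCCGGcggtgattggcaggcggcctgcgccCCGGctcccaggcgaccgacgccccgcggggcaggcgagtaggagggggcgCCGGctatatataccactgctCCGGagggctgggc
Tfcp2l1: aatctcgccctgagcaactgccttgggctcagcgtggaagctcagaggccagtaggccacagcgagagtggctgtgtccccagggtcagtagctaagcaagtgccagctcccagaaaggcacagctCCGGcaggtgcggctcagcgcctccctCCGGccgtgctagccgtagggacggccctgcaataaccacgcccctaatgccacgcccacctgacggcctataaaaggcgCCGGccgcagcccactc
Zfp281: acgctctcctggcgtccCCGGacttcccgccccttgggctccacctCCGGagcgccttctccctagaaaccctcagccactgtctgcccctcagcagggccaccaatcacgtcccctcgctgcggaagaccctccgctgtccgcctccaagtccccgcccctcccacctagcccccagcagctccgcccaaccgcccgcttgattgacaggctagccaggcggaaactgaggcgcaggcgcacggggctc
The Zfp42 promoter (chr8:43307010-43307259, minus strand) is shown as the contrast, because it has no CCGG in these 250 bases. Here the capitals mark ATTTGCAT, the octamer motif that Oct4 binds.
Zfp42: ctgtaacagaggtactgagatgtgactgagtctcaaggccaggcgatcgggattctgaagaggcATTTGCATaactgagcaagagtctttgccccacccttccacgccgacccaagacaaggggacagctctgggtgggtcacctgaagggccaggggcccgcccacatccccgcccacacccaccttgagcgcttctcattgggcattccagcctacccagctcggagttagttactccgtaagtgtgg
The octamer was searched on both strands (ATTTGCAT and its reverse complement ATGCAAAT). It was found 1 time in the Zfp42 window and 0 times in the windows of the other 6 genes, and 570 of the 32851 promoters held it (1.74%). For Zfp42, Tdgf1 and Lin28a the window held at most 1 CCGG, so the method could see little or nothing of the CpG methylation of those promoters.

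**Figure D1:**
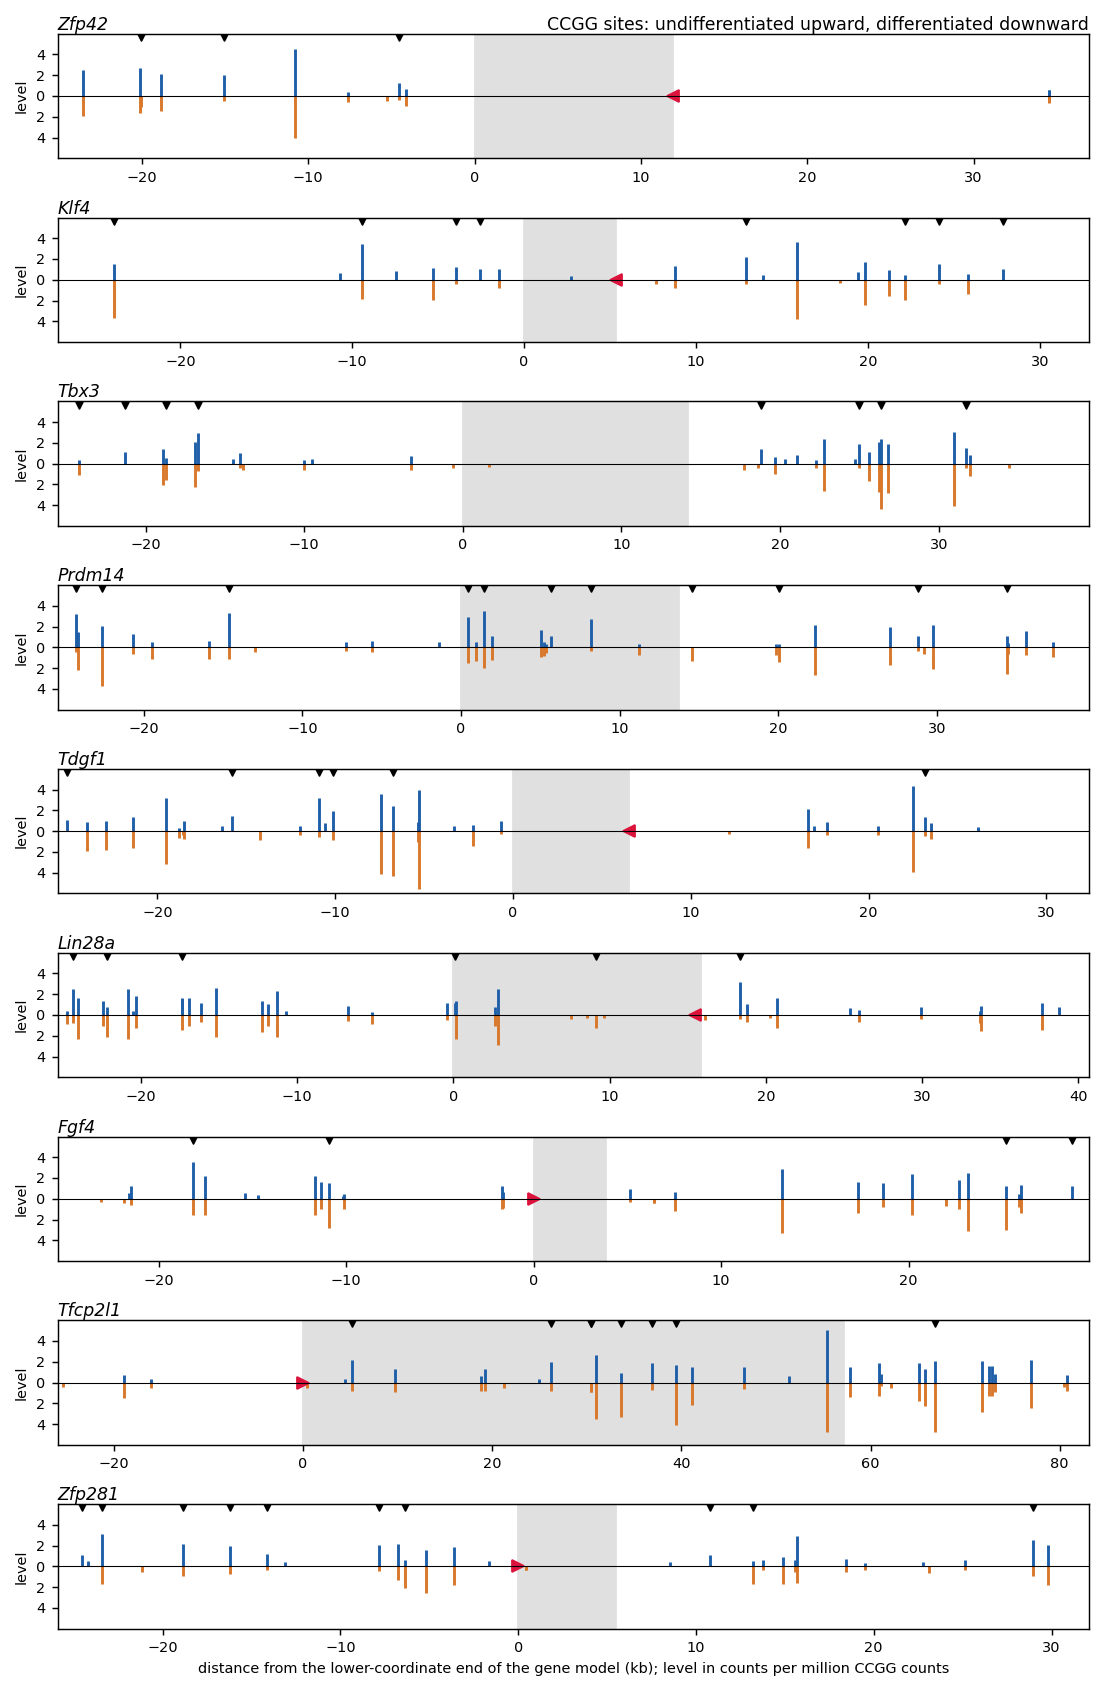
CCGG sites of each locus by distance from the lower-coordinate end of the gene model (kb), with the level in counts per 1000000 CCGG counts drawn upward in blue for the undifferentiated and downward in orange for the differentiated library. Grey marks the gene model, a red arrowhead the start of the 7 genes with a promoter entry, and black triangles the 64 sites called different; Zfp42, Tdgf1 and Fgf4 have no listed CCGG site in the gene.

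Over the 9 loci, 254 of the 266 CCGG sites had enough counts to test, and 64 of them (25.2%) were called different between the libraries. A site was called where the adjusted p of Fisher's exact test (two-sided, Benjamini-Hochberg over all 763323 tested CCGG sites) was under 0.05. The level was higher after differentiation at 22 sites (8.66%) and lower at 42 (16.5%). Over all tested CCGG sites 11.6% were called higher and 11.9% lower. The share called in the loci was thus near that of the genome (23.5%), with 34.4% of the loci's calls in the higher direction against 49.3% of all calls. With the divisors of the deposited RPM values as scaling, these shares were 22.0% and 31.0%. Among the higher calls 5 had no listing before differentiation, and among the lower calls 12 had none after it. The median log2 ratio was 1.62 over the sites called higher and -1.99 over those called lower. These medians and all log2 ratios of sites unlisted in 1 library rest on the 4 counts given there, so the sizes of such changes are minimum values and sites cannot be ranked across the 2 kinds. The median over all tested sites of the loci was -0.12, against 0.02 over the genome.

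Direction was mixed within every locus with the main scaling, since each held at least 1 site called higher and at least 2 called lower. With median-ratio scaling Tdgf1 had no higher call left. With the divisors of the deposited RPM values neither Tdgf1 nor Tbx3 had one. Among neighbouring called sites of a locus, 26 of 55 pairs had the same direction and 29 the opposite one. These neighbours lay between 4 and 36111 bp apart, and the closest, in Tfcp2l1, may share reads. The share over the genome was not computed, so the count does not set the loci apart. Of 26 pairs of listed CCGG sites at most 200 bp apart, 9 had opposite directions. No such pair had both sites called, so opposite directions there may be counting error alone. An example is 10 and 9 counts at 43329582 beside 10 and 10 at 43329593. The listed sites had a median of 19 counts before (228 sites) and 15 after differentiation (222 sites), against 19 and 17 over the genome. Sites listed in both libraries made up 69.2% (95% Wilson interval 63.4 to 74.4%), against 69.9% over the genome, and the others were listed in 1 library only, 44 in the undifferentiated and 38 in the differentiated one.

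**Figure D2:**
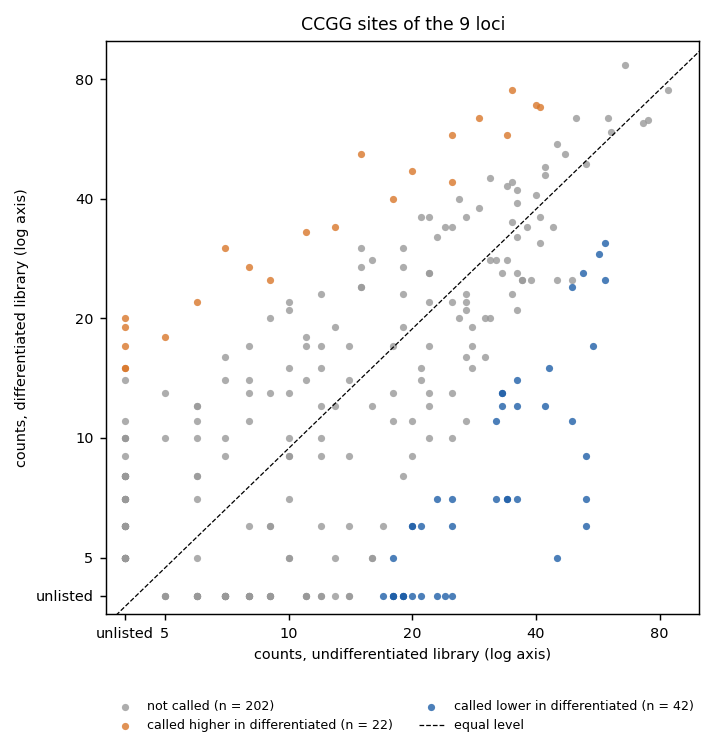
Counts of each of the 266 CCGG sites in the undifferentiated (x) and the differentiated library (y), on log axes, with unlisted sites drawn at 4 counts. The dashed line marks equal levels; the 42 sites called lower (blue) lie below it and the 22 called higher (orange) above it, and 12 and 5 of them sit on the unlisted edge.

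Summed over all 9 loci, the listed CCGG counts were 5207 before and 4557 after differentiation, or 5359 and 4733 with 4 counts for each unlisted site. From the latter, as in all sums below, the log2 ratio of the summed levels was -0.09 (95% counting interval -0.15 to -0.04), against 0.02 over the whole genome. The sum was below 0 at 7 loci and above 0 at Tbx3 and Tfcp2l1. Zfp281 had the lowest sum at -0.42 (-0.61 to -0.24) and Zfp42 the next at -0.33 (-0.59 to -0.08). Prdm14, at -0.17 (-0.33 to -0.01), also had an interval below 0, whereas those of Lin28a (-0.14), Klf4 (-0.14), Fgf4 (-0.11), Tdgf1 (-0.08) and Tbx3 (0.08) included 0. Tfcp2l1 stood at the other end, at 0.20 (0.05 to 0.34). Genome windows of 62 kb with at least 10 CCGG sites (n = 27136) had a median of 0.05, with the middle 50% between -0.13 and 0.21 and 5% to 95% between -0.43 and 0.45. Of the loci, 5 lay below that middle range, 4 within it and 0 above it, and all 9 lay within the wider one. Neighbours in this order had overlapping counting intervals. The sums move with the scaling: the divisors of the deposited RPM values shift every log2 ratio by -0.23 and median-ratio scaling shifts it by -0.16, which puts all 9 loci and 8 of 9 loci below 0. Without Zfp281 the sum over the other loci was -0.06 (-0.12 to 0.0025), so that its interval included 0. Over sites listed in both libraries the sums of Klf4 (0.045) and Tdgf1 (0.010) were above 0, and in windows trimmed by 10 kb at each end that of Fgf4 was (0.017). Klf4 went the other way in trimmed windows (-0.25, -0.48 to -0.02) and with unlisted sites as 0 (-0.22, -0.43 to -0.015), where its interval lay below 0. The interval of Tbx3 lay above 0 over sites listed in both libraries (0.19, 0.0073 to 0.38). That of Lin28a lay below 0 without the highest site of each locus (-0.17, -0.33 to -0.0095) and with totals that leave out the 1000 highest sites (-0.18, -0.34 to -0.03). The interval of Tfcp2l1 included 0 over full-match sites (0.13, -0.02 to 0.28) and over sites listed in both libraries (0.15, -0.0035 to 0.30). Trimming put Prdm14 at -0.35 (-0.56 to -0.14) and Zfp281 at -0.15 (-0.39 to 0.08), so that Zfp42 had the lowest sum (-0.415). Zfp42 was also below Zfp281 over sites listed in both libraries (-0.46 against -0.39). The same held without the highest site of each locus (-0.39 against -0.38). In the other alternatives Zfp281 stayed the lowest.

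**Figure D3:**
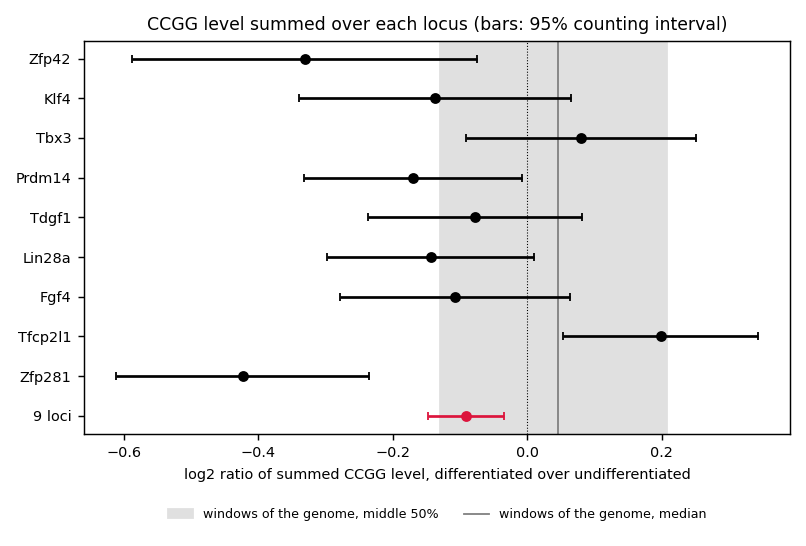
Log2 ratio of the CCGG level summed over each locus, differentiated over undifferentiated (x), for the 9 loci and for their total in red; bars are 95% counting intervals. The grey band and line are the middle 50% (-0.13 to 0.21) and the median (0.05) of 62 kb windows of the genome; Zfp281 and Zfp42 lie farthest to the left and Tfcp2l1 farthest to the right.

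Zfp42, also called Rex1, is a zinc finger protein used as a marker of undifferentiated stem cells. Its window (chr8:43270000-43332000) was the sparsest, with 12 listed CCGG sites, or 1.94 per 10 kb. No CCGG site was listed between positions 43290961 and 43329582, a stretch of 38.6 kb that holds the whole gene model (43295067 to 43307009, minus strand). The nearest listed site to the start was 16048 bp away. All 3 called sites lay downstream of the gene. The site at 43280018 had 34 counts before and 7 after differentiation (log2 ratio -2.19, adjusted exact p = 8.50e-04). The site at 43290494 had 21 and 6 counts (-1.72, adjusted exact p = 0.0321). Both were lower after differentiation, while the other called site was higher. At 43275000 the count was 17 in the differentiated library and the site was unlisted in the undifferentiated one, at least 4.52-fold higher (adjusted exact p = 0.0203). Only 63 bp from it, the site at 43274937 had 45 and 25 counts. The highest site of the window, at 43284276, had 75 and 63 counts and was not called.

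Klf4 is a Krüppel-like transcription factor and one of the factors used to reprogramme somatic cells. Its window (chr4:55500000-55560000) had 22 listed CCGG sites, 8 of them called. Downstream of the gene (55527137 to 55532475, minus strand) 3 sites were lower and 1 higher, and upstream again 3 were lower and 1 higher. The lower site at 55540073, 7598 bp upstream of the start, had 36 counts before and 7 after differentiation (log2 ratio -2.28, adjusted exact p = 3.98e-04). A CCTGG site 12 bp away, at 55540061, also had 36 and 7 counts. Both may be counted from the same reads, so the difference cannot be assigned to CpG. The lower sites at 55524584 and 55554984 had 18 and 17 counts before and were unlisted after differentiation, at least 4.24-fold and 4.00-fold lower (adjusted exact p = 0.0250 and 0.0362). These sites lie on both sides of the gene. A smaller difference was called at 55517694, with 57 and 29 counts (-0.89, adjusted exact p = 0.0330). The higher sites were at 55549330, with 7 and 30 counts (2.19, adjusted exact p = 0.00125), and at 55503284, with 25 and 58 counts (1.30, adjusted exact p = 0.00137). The highest site, at 55543039, had 61 and 59 counts and was not called. The gene model held 1 listed CCGG site, with 6 counts in the undifferentiated library only. The stretch around the start without a listed site was 4.94 kb long.

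Tbx3 is a T-box transcription factor that supports the undifferentiated state. Its window (chr5:119645000-119710000) had 32 listed CCGG sites, with 3 called higher and 5 lower, and its counts were nearly equal in sum, 541 and 534. The gene model (119670534 to 119684724) held 1 listed site, and 16.05 kb around its upper end had none. Among the lower sites, 119689332 with 23 counts and 119649220 with 19 before differentiation were both unlisted after it, at least 5.41-fold and 4.47-fold lower (adjusted exact p = 0.00365 and 0.0172). The site at 119695530 had 32 and 7 counts (log2 ratio -2.11, adjusted exact p = 0.00180). These lay on both sides of the gene, the second within the models of Gm16064 and Tbx3os1. The higher sites also lay on both sides: 119646315 had 5 and 18 counts (1.94, adjusted exact p = 0.0285), 119651812 had 9 and 25 (1.56, adjusted exact p = 0.0271), and 119696868 had 40 and 69 (0.87, adjusted exact p = 0.0136). None of the 3 higher calls held with the divisors of the deposited RPM values, and that at 119696868 was also lost with median-ratio scaling. The highest site, at 119701518, had 50 and 64 counts and was not called.

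Prdm14 is a PR domain zinc finger protein of stem and germ cells that represses the genes of the de novo DNA methyltransferases. Its window (chr1:13088000-13153000) had 33 listed CCGG sites. The gene model (13113428 to 13127163) held 10 of them, with 249 counts before and 146 after differentiation (log2 ratio of the sums -0.64, unlisted sites again at 4 counts), and all 4 sites called there were lower. Above the gene, the 12 sites had 195 and 244 counts (0.35), with 3 called higher and 1 lower. Below it, the 11 sites had 235 and 180 counts (-0.29). The difference between gene and flank was not tested. Within the gene, the site at 13121600 had 45 and 5 counts (log2 ratio -3.08, adjusted exact p = 1.45e-06). The site at 13119073 had 19 counts and was unlisted in the differentiated library, at least 4.47-fold lower (adjusted exact p = 0.0172). Outside the gene, 13089146 had 53 and 7 counts (-2.83, adjusted exact p = 3.91e-07), while 130 bp away the site at 13089276 had 24 and 34 counts. Above the gene, 13127996, at 833 bp from its upper end, was unlisted in the undifferentiated library and had 20 counts in the differentiated one, at least 5.31-fold higher (adjusted exact p = 0.00597). Farther out, 13133445 had 6 and 22 counts (1.96, adjusted exact p = 0.0127). The site at 13147822, in the model of Ncoa2, had 18 and 40 counts (1.24, adjusted exact p = 0.0144). The highest site, at 13090789, had 34 and 58 counts (0.86, adjusted exact p = 0.0316). The calls at 13147822 and 13090789 were lost with the RPM divisors, and that at 13090789 also with median-ratio scaling.

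Tfcp2l1, a transcription factor of the grainyhead-like family, had the longest window (chr1:118602000-118711000) and a gene of 57.2 kb (118627923 to 118685168, plus strand) with 19 of its 36 listed CCGG sites. It was the only locus of the 9 with more sites called higher (5) than lower (3), but 2 of the 5 are a pair 4 bp apart. With that pair read as 1 observation there were 4 higher and 3 lower, and without it 3 in each direction. Within the gene, 4 were higher and 3 lower, and the summed counts were 398 and 411. All 3 lower sites lay in the gene: 118633056 with 36 and 12 counts (log2 ratio -1.50, adjusted exact p = 0.00927), 118664778 with 32 and 11 (-1.45, adjusted exact p = 0.0192), and 118654159 with 33 and 13 (-1.26, adjusted exact p = 0.0351). Between them lay higher ones. The site at 118661543 had 15 and 52 counts (1.88, adjusted exact p = 6.33e-05), and its alignment type was S in both tables. That pair, at 118658350 and 118658354, was unlisted in the undifferentiated library and had 15 counts each in the differentiated one, at least 3.98-fold higher (adjusted exact p = 0.0440). The pair is close enough to share reads and is better read as 1 observation. Its call was lost with the RPM divisors and with median-ratio scaling. The highest site of all loci in the undifferentiated library, at 118683329, had 84 and 75 counts and was not called. No CCGG site was listed over 16.5 kb around the start, nearly all of it upstream.

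Zfp281, a zinc finger protein that binds GC-rich DNA and takes part in the exit from the naive state, had the largest share of called sites after Klf4, 10 of 28 tested. Its window (chr1:136599000-136657000) had 551 counts before and 370 after differentiation. Upstream of the gene (136624901 to 136630391, plus strand) 7 of 14 sites were called, 6 lower and 1 higher, with 321 and 195 counts in sum. Downstream, 2 were lower and 1 higher. The site at 136617096, 7805 bp upstream, had 34 and 7 counts (log2 ratio -2.19, adjusted exact p = 8.50e-04). Those at 136635686 and 136600382 had 19 and 18 counts and were unlisted in the differentiated library, at least 4.47-fold and 4.24-fold lower (adjusted exact p = 0.0172 and 0.0250). The higher sites stood among them: 136618527 had 11 and 33 counts (1.67, adjusted exact p = 0.00407), and 136638103 had 8 and 27 (1.84, adjusted exact p = 0.00794). The highest site, at 136601483 near the edge of the window, had 52 and 26 counts (-0.91, adjusted exact p = 0.0400). With 10 kb trimmed from each end of the window, the sum was -0.15 (-0.39 to 0.08) in place of -0.42, so the outer parts of the window held much of the difference.

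Lin28a, an RNA-binding protein that blocks the maturation of let-7 microRNAs, had the most listed CCGG sites, 40 in chr4:133978000-134044000. The gene (134003330 to 134019196, minus strand) held 8 of them, with 96 and 134 counts, and the flanks were lower in sum, 182 and 125 upstream and 454 and 361 downstream. The site at 134021696, 2880 bp upstream of the start, had 53 counts before and 6 after differentiation (log2 ratio -3.06, adjusted exact p = 1.31e-07). The deposited tables mark this site with the alignment type S in both libraries and not with a full match. Without the sites that lack a full match, the log2 ratio of the Lin28a window was -0.0037 in place of -0.14. Downstream, in the model of Dhdds, the site at 133985975 had 25 counts and was unlisted after differentiation, at least 5.88-fold lower (adjusted exact p = 0.00162), while the site 35 bp away at 133985940 had 27 and 23. Also in Dhdds, 133978996 had 42 and 12 counts (-1.72, adjusted exact p = 0.00137) and 133981147 had 13 and 34 (1.47, adjusted exact p = 0.00872). In the gene itself 1 site was called in each direction. The site at 134003437 had 20 counts and was unlisted in the differentiated library, at least 4.71-fold lower (adjusted exact p = 0.0118), and its neighbour 65 bp away, at 134003502, had 22 and 36. The site at 134012449 was unlisted in the undifferentiated library and had 19 counts in the other, at least 5.05-fold higher (adjusted exact p = 0.00903). The highest site, at 134006159, had 42 and 46 counts and was not called.

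Tdgf1, or Cripto, is a co-receptor for the growth factor Nodal. Its window (chr9:110914000-110972000) had 31 listed CCGG sites and, like that of Zfp42, none in the gene model (110939608 to 110946158, minus strand), which lay in a stretch of 12.8 kb without a listed site. Of its 6 called sites 5 were lower and 5 lay downstream. The site at 110928682 had 53 and 9 counts (log2 ratio -2.47, adjusted exact p = 2.68e-06), and the site at 110929457, beside it, had 33 and 13 (-1.26, adjusted exact p = 0.0351). Those at 110923800 and 110914503 had 24 and 18 counts and were unlisted after differentiation, at least 5.65-fold and 4.24-fold lower (adjusted exact p = 0.00244 and 0.0250). Upstream, 110962812 in the model of Lrrc2 had 23 and 7 counts (-1.63, adjusted exact p = 0.0296). The 1 higher site, at 110932880, had 41 and 68 counts (0.82, adjusted exact p = 0.0220), and this call was lost with median-ratio scaling and with the RPM divisors. The highest site of all loci in the differentiated library, at 110934305, had 66 and 87 counts and was not called.

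Fgf4 encodes a secreted growth factor, and its known enhancer, bound by Oct4 and Sox2, lies within the last exon. Its window (chr7:144836000-144891000) had 30 listed CCGG sites and none in the gene model (144861386 to 144865245, plus strand), so CCGG counts say nothing of that enhancer here. It had the smallest share of called sites of the 9 loci, with 2 higher and 2 lower of 28 tested (14.3%). On the lower side, 144890127 had 21 counts and was unlisted after differentiation, at least 4.94-fold lower (adjusted exact p = 0.00801), and 144843239, in the model of the neighbouring Fgf3, had 59 and 25 (log2 ratio -1.15, adjusted exact p = 0.00553). On the higher side, 144886575 had 20 and 47 counts (1.32, adjusted exact p = 0.00482), and 144850464 had 25 and 44 (0.90, adjusted exact p = 0.0488), a call that was lost in 3 of the alternatives. The highest site, at 144874607, had 47 and 52 counts and was not called. The gene model held 1 CCAGG or CCTGG site, with 12 counts in the differentiated library only.

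The starts of the genes were compared with other starts. Within 1 kb of a start (for Tbx3 and Prdm14, whose strand was not given, of either end of the gene model) 8 CCGG sites were listed, 6 of them in the differentiated library only, 2 in both and 0 in the undifferentiated library only. Over the genome, 31397 sites lay this near a start, 57.3% in both libraries, 18.8% in the undifferentiated and 23.9% in the differentiated only. Those sites were counted around starts, whereas the 8 include sites near an end of Tbx3 or Prdm14 that may not be the start. The 2 listed in both libraries lay near the lower end of the Prdm14 model. The counts of the 6 sites were low except at 1. Beside Tbx3 the site at 119669910 had 7 counts, Lin28a had 8 at 134019454, and Tfcp2l1 had 8 at 118628352. Zfp281 had 5 each at 136625350 and 136625362, 12 bp apart, close enough to share reads. These are near the listing minimum, and in the genome 58.0% of the near-start sites that had 5 to 9 counts after differentiation were unlisted before it. The other was the called Prdm14 site at 13127996 with 20 counts. The 2 sites in both libraries were in Prdm14: 13113881 had 49 and 24 counts (log2 ratio -0.94, adjusted exact p = 0.0428) and 13114365 had 9 and 20 and was not called. The stretch without a listed CCGG site around a start ranged from 1.85 kb at the lower end of Prdm14 to 38.6 kb at Zfp42, and the median over 21224 protein-coding starts was 5.02 kb (middle 50% 2.296 to 10.4 kb). Zfp42, Tdgf1, Tfcp2l1 and the upper end of Tbx3 lay above that range, and Zfp281 and the lower ends of Prdm14 and Tbx3 lay below it.

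**Figure D4:**
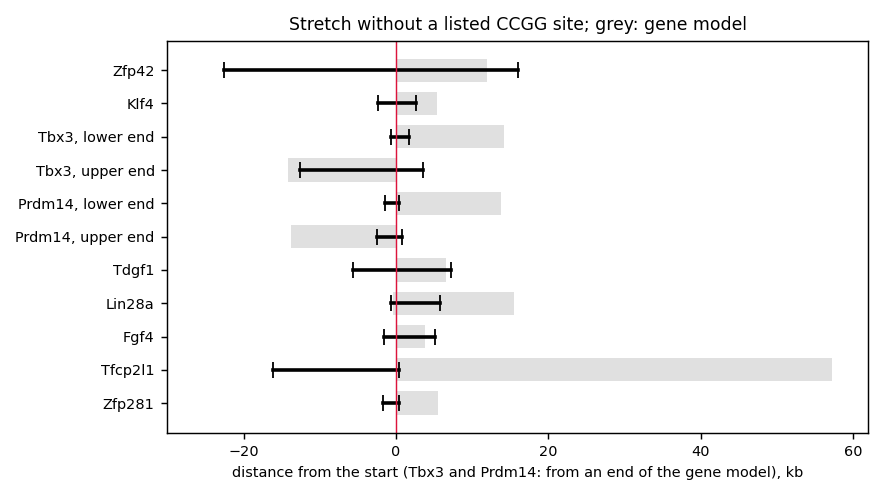
Stretch without a listed CCGG site (black line) around the start of each gene, or around each end of the gene model for Tbx3 and Prdm14, by distance from that point in kb (x, positive into the gene or toward higher coordinates), with the gene model in grey. The stretch spans the whole gene at Zfp42 (38.6 kb) and Tdgf1 (12.8 kb).

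Listed CCGG sites were few in number in 6 of the genes, but the genes differ in length (3.86 to 57.2 kb). The models of Zfp42, Tdgf1 and Fgf4 had 0, those of Klf4 and Tbx3 had 1 and that of Zfp281 had 2, while Lin28a, Prdm14 and Tfcp2l1 held 37 of the 41 sites in the genes. Among 14326 protein-coding genes of 3 to 60 kb, 9.14% had no listed CCGG site and 15.1% had 1 or none, and the median was 5.06 per 10 kb. How many CCGG motifs the gene sequences hold was not analysed here. Inside the genes and away from starts, 36 sites were listed, with 5 called higher (16.1%) and 7 lower (22.6%) of 31 tested, against 12.2% and 11.7% of such sites over the genome. Outside the genes, 16 were higher (7.37%) and 34 lower (15.7%) of 217 tested, and some of these lay in the model of another gene. Over the genome, sites outside any gene were called higher in 11.1% and lower in 12.4%, which is not quite the same class.

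Counts at CCAGG and CCTGG sites made up 20.1% (95% Wilson interval 19.1 to 21.04%) of all counts in the windows in the undifferentiated library and 29.2% (28.1 to 30.3%) in the differentiated one, a difference of 9.16 percentage points. Over the genome the shares were 18.8% and 26.2%, a difference of 7.44 points. The share was higher after differentiation at 8 loci, from 3.33 to 14.6% at Zfp42, 8.10 to 18.7% at Tdgf1 and 31.97 to 47.8% at Fgf4. Fgf4 had the highest share in both libraries, in the undifferentiated one little above Tfcp2l1 (31.1%). At Klf4 it was 24.9 and 23.1%. Of the 183 sites, 68 were listed in both libraries (37.2%), 35 in the undifferentiated only (19.1%) and 80 in the differentiated only (43.7%), near the genome's 34.1%, 21.2% and 44.7%. Over sites listed in both, the difference was 4.70 points. Because fragments are about 30 bp, a CCAGG or CCTGG site beside a CCGG site can be counted from the same reads, and 34 sites within 16 bp of a listed CCGG held 43.0% and 38.7% of these counts. The same limit holds for CCGG sites. Such a site lay 4 to 9 bp from Prdm14 13090789, Lin28a 133981147, Tbx3 119651812 and both higher calls of Fgf4. Its counts were equal or nearly equal to those of the CCGG site. The same was true 8 bp from Tfcp2l1 118628352. Counts differed elsewhere, as 15 bp from Zfp281 136638103. Where reads are shared, a difference cannot be assigned to CpG.

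**Figure D5:**
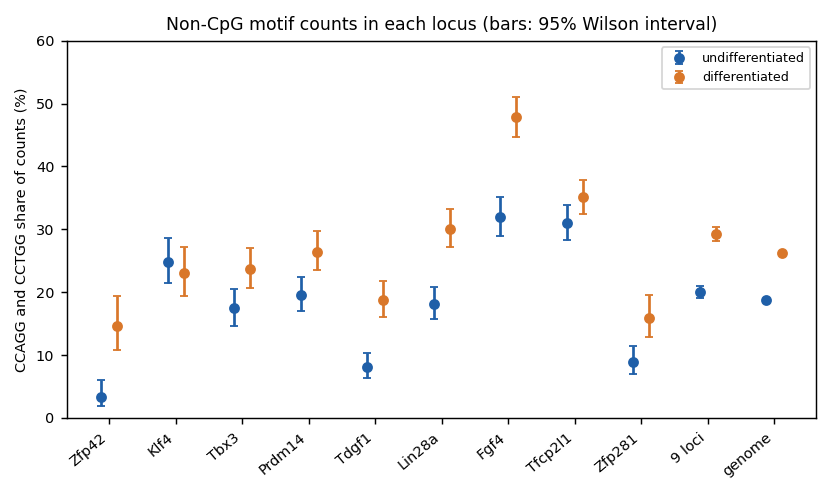
Share of all counts in a window that fell on CCAGG and CCTGG sites (y, %), for each locus, the 9 loci together and the genome, in the undifferentiated (blue) and differentiated library (orange); bars are 95% Wilson intervals. The orange point lies above the blue one everywhere but at Klf4, and Fgf4 has the highest share in both.

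Single CCAGG and CCTGG sites were called against the total of their own motif, so that the genome-wide difference in share drops out. Of 154 tested sites in the windows 10 were called (6.49%), 1 higher and 9 lower, while 1.18% were called higher and 4.53% lower of all 454331 tested. Against the CCGG totals instead, 17 were called (11.0%, against 7.31% of all sites), 11 higher and 6 lower. With unlisted sites as 0, 31 of 87 were called (35.6%, against 39.4% of all sites), 15 higher and 16 lower. Over sites listed in both libraries 9 of 68 were called, 1 higher and 8 lower. The direction of these calls thus follows the scaling and the treatment of unlisted sites. Of the 10 sites, 6 lay more than 32 bp from any listed CCGG. In the Tfcp2l1 window these were 118611908, a CCAGG site upstream of the gene with 31 and 10 counts (log2 ratio -2.16, adjusted exact p = 7.81e-04), 118608929, a CCTGG site with 6 and 31 counts (1.84, adjusted exact p = 0.0437), and a CCTGG pair in the gene. The call at 118608929, the only higher one, was lost when only sites more than 32 bp from a CCGG were tested. The pair, at 118652950 and 118652964, had 23 and 22 counts before differentiation and was unlisted after it (adjusted exact p = 3.93e-04 and 6.69e-04); the sites lie 14 bp apart and may share reads. Near Klf4, the CCAGG site at 55517634 had 35 and 13 counts (-1.96, adjusted exact p = 9.29e-04), and upstream of Zfp281 the CCTGG site at 136621343 had 33 and 13 (-1.88, adjusted exact p = 0.00203). The sites with the most counts far from CCGG were CCAGG sites and were not called: 134042901 in the Lin28a window had 28 and 51 counts, 144871154 in the Fgf4 window had 20 and 34, and 13152762 in the Prdm14 window had 13 and 36.

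The same measures were taken for another 25 genes of the pluripotency network, each from 20 kb before to 20 kb after its gene model. They include Klf2 and Klf5, relatives of Klf4, the Nodal gene, whose product signals through Tdgf1, and Stat3, which acts upstream of Klf4 and Tfcp2l1. Of their 816 listed CCGG sites 775 were tested, and 64 (8.26%) were called higher and 113 (14.6%) lower, beside 8.66% and 16.5% in the 9 loci. The log2 ratio of the sum was -0.08, and 20 of the 25 genes had a sum below 0, in a range from -0.97 at Nr0b1, which had 2 sites, to 0.40 at Mycn. Near the starts of the 16 genes with a promoter entry, 6 sites were listed in the differentiated library only, 3 in the undifferentiated only and 4 in both.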

How the data were processed

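DNA methylation was measured by methylRAD in 1 library of undifferentiated and 1 of differentiated F9 cells, as the labels name their state. The DNA was cut with FspEI and 30 bp fragments were taken from a gel, per the labels' protocols. The submitters' processing notes name FastQC 0.11.3, Bowtie2 2.3.3 and the build GRCm38, without roles. Counts as deposited are whole reads per site, at least 5, and sum to 20550450 and 21291239. The RPM column, as deposited, was taken for a score, since it sums to more than 1000000, and served only as an alternative scaling. How they and the minimum of 5 were made is not given in the sources used here. The build was checked on RefSeq promoters of GRCm38.p6, where 10095 of 10208 listed positions (98.9%) read the deposited motif.

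Positions whose motif differed between the libraries (50) were left out. CCGG sites were tested against the rest of the CCGG total, and CCAGG and CCTGG sites against the total of their own motif, with Fisher's exact test (two-sided, Benjamini-Hochberg over all sites whose counts summed to 10 or more). Sums were given exact conditional binomial intervals and shares Wilson intervals, both at 95%. Sites were named by rule: all called CCGG sites of a locus, or the 3 highest and 3 lowest log2 ratios where there were more than 6; the site with the most counts; sites within 1 kb of a start; and, at over 32 bp from any CCGG, the CCAGG or CCTGG sites that were called or among the 3 with most counts. A few neighbours and 2 pairs were named after their values were seen. The members, gene list and tests were chosen with earlier results of these data known.

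No genome sequence was used, so the number of CCGG motifs was known only in promoter windows of 300 bases, and not within 1 kb of the starts as planned. Exon positions were not used. Tbx3 and Prdm14 had no promoter entry, so both ends of their gene models were used. Alternatives concerned scaling, unlisted sites, minimum counts, alignment type, windows and runs of sites. The site test was checked on simulated counts: of 200 sites changed 4-fold among 686362, 63.5% were recovered with the right sign and 0 with the wrong one, and 4 unchanged sites were called. In the data 23.5% of tested CCGG sites were called, a far larger share than was changed in the simulation. Its rates of recovery and of false calls therefore do not carry over to the calls above. Scripts ran in Python 3.11.15 with scipy 1.17.1, statsmodels 0.14.6, pandas 2.3.3, numpy 2.4.6 and matplotlib 3.10.9.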

Additional observations from a re-analysis of the deposited data

How the results depend on the processing

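Of the 51 called CCGG sites named above, 45 were still called with median-ratio scaling, 42 with the divisors of the RPM values, 49 with a summed count of at least 20 and 50 without the 1000 highest sites, and none changed direction. With the RPM divisors 13 sites of the loci were called higher in place of 22 (5.12% in place of 8.66%, and 7.33% in place of 11.6% over the genome). Windows trimmed by 10 kb at each end left 14 higher and 24 lower of 161 tested. The log2 ratio summed over the loci was -0.25 with median-ratio scaling and -0.32 with the RPM divisors, and between -0.15 and -0.06 on leaving out each locus in turn (-0.06, with an interval of -0.12 to 0.0025, without Zfp281). The Tfcp2l1 locus turned from 0.20 to -0.028 with the RPM divisors. The share of sites listed in both libraries was 61.2% with counts of at least 10. The difference in the CCAGG and CCTGG share was 4.70 points over sites listed in both libraries and 6.68 in trimmed windows. For these motifs 17 sites were called against the CCGG totals (11.0%, against 7.31% of all sites), 31 of 87 with unlisted sites as 0 (39.4% of all sites) and 5 of 117 when only sites more than 32 bp from a CCGG were tested (4.27%, against 2.50% of all such sites). Near a start, 4 CCGG sites were listed within 0.5 kb, 15 within 2 kb (7 in the differentiated and 2 in the undifferentiated library only) and 3 with counts of at least 10. The cause of these differences was not tested. The listing minimum limits what can be seen: a site with 0 to 4 counts is unlisted, and with 1 library per group no difference has a replicate check. No paired analysis was possible because each group has 1 library.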
